A study of Mus musculus with 12 samples.

Results

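The colony-stimulating factors are secreted proteins that govern the survival, growth and activation of macrophages, granulocytes and their precursors. The genes described here are those of the 4 ligands, *Csf1*, *Csf2*, *Csf3* and *Il34*, and of the 4 receptor chains that bind them, *Csf1r*, *Csf2ra*, *Csf2rb* and *Csf3r*. They were chosen by gene symbol, and all 8 were found among the 18996 genes of the count table. RNA was sequenced from 12 mice in 3 groups of 4. The No operation group gave soft tissue from beside the spine. In the SHAM group the paraspinal soft tissue was removed and the lamina, the bony roof of the spinal canal, was left in place. In the Laminectomy group the lamina was cut out as well. Samples of both surgical groups held scar together with soft tissue. Per the study's methods the animals were BALB/c mice 5 to 7 weeks old, and the study as a whole used both sexes. A supplementary figure legend of the study gives day 7 for the sequenced scar tissue. The labels name no agent and no engineered allele for any of these mice. The methods state 3 mice per group, whereas 4 were deposited for each, and all were used.

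CSF1 (M-CSF) and IL-34 are both ligands of the receptor tyrosine kinase CSF1R, on which most tissue macrophages depend. CSF2 (GM-CSF) binds a receptor built from its own alpha chain, CSF2RA, and a beta chain, CSF2RB, that it shares with IL-3 and IL-5. CSF3 (G-CSF) acts through CSF3R, which is carried mainly by neutrophils and their precursors and drives the output of neutrophils from the marrow. In the mouse, the beta chain gene has a nearby copy, *Csf2rb2*, whose product serves IL-3 alone.

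The beta chain and its copy lie on chromosome 15 of GRCm38, *Csf2rb* at 78325752 to 78353847 on the plus strand and *Csf2rb2* at 78282507 to 78305721 on the minus strand. Their coding sequences of 2688 and 2634 bases were identical at 95.4% of the 2626 bases that aligned. The longest stretch without a difference ran over 242 bases, positions 2083 to 2324 of both coding sequences. It is shown because a read that falls within it cannot be assigned to either gene.
Csf2rb and Csf2rb2, identical run: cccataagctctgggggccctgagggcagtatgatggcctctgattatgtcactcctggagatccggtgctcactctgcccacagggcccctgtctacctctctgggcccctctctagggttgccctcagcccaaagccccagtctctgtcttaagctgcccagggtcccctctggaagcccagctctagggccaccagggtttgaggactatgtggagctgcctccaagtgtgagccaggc

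The window of 90 bases with the most differences held 16, and a read over it separates the genes. It covers positions 308 to 397 of the *Csf2rb* coding sequence and 311 to 400 of that of *Csf2rb2*, and capitals mark the bases that differ.
Csf2rb: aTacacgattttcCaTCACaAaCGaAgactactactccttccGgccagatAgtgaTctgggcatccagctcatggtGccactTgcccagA
Csf2rb2: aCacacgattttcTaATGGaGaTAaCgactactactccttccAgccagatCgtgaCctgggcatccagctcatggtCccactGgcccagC

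RefSeq start sites with GRCm38.p6 promoter sequence were used for *Csf1*, *Csf2*, *Csf2ra*, *Csf3r* and *Csf2rb2*. Because receptor transcripts moved together between groups, the 250 bases before each start were searched on both strands for GAGGAA, a core of sites bound by PU.1, the myeloid transcription factor encoded by *Spi1*. These letters occurred in 23.3% of 32851 promoters of that length. They were found at 2 places in *Csf2ra*, at 1 in *Csf3r* and at 1 on the opposite strand in *Csf2rb2*, and not in the windows of *Csf1* and *Csf2*. The stretches of 30 bases around the matches are shown with GAGGAA, or its complement on the other strand, in capitals.
Csf2ra, chr19:61228419-61228448, minus strand: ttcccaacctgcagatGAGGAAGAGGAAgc
Csf3r, chr4:126024561-126024590, plus strand: cctccttcctgaGAGGAAggggctgtctat
Csf2rb2, chr15:78305871-78305900, minus strand: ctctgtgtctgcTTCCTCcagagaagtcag

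The *Csf3r* stretch lies before the RefSeq start but inside the gene as GENCODE draws it, and the last bases of the *Csf2ra* stretch likewise. TTGCNNAA, a strict form of the site of C/EBP factors, was found in the *Csf2* window and in 9.56% of all promoters. Its looser form TTNCNNAA, which takes in every match of the strict one, was found in the windows of *Csf2* and *Csf2ra* and in 36.8% of all promoters. GGGNNTTCC and its stricter form GGGANTTCC, searched for NF-kB, occurred in 4.98% and 1.43% of promoters, and GATTCCAC in 0.542%, and none of these letters was found in the 5 windows. The RefSeq start of *Csf2* lies before the start that GENCODE draws, so its window does not reach the bases next to the latter, and these were not searched. These matches describe letters only, and binding was not measured.

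Counts per mouse totalled 16802989 to 18077868. The tissue of the groups differed in its make-up. All 10 genes of a skeletal muscle list were lower in both surgical groups, and their summed level was 84378 to 119273 CPM (counts per 1000000 after scaling of library sizes) in the No operation group. It was 2080 to 7765 CPM in the SHAM group and 2554 to 11269 CPM in the Laminectomy group. In bulk tissue, a change in the number of cells of a type and a change in RNA per cell cannot be told apart, and this holds for every difference given here. SHAM replicate 1 had the highest macrophage list sum of all mice, 9034 CPM. No operation replicates 2 and 3 had more transcript from genes of marrow granulocyte precursors, 3575 and 1312 CPM in sum, than No operation replicates 1 and 4, at 69.0 and 28.3 CPM. Their bone list sums, 578.7 and 182.8 CPM, were likewise above the 26.8 and 43.0 CPM of the other two.

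Receptor transcripts and *Csf1* were more abundant in SHAM mice than in unoperated mice, *Il34* was less abundant, and *Csf3*, with no more than 1 count in any unoperated mouse, was measured in every SHAM mouse. A gene was called at a Benjamini-Hochberg adjusted p below 0.05 in edgeR's quasi-likelihood test and an absolute log2 fold change above 0.5. Of the 7 members with enough counts to test, 6 were called higher and 1 lower in SHAM against No operation mice. Among all 14765 genes tested, 50.8% were called in this comparison, 25.7% higher and 25.1% lower. In Laminectomy against No operation mice, 3 members were called higher and 1 lower, where 48.6% of all genes were called, 24.2% higher and 24.4% lower. *Csf3* passed the filter on low counts only through the SHAM mice, where it is high, and of the other 6 members 5 were called higher and 1 lower in SHAM mice, and 3 higher and 1 lower in Laminectomy mice. Without SHAM replicate 1, 7 and 5 members were called in these comparisons, beside 48.2% and 49.1% of all genes in that fit. Both comparisons use the same No operation mice. The median log2 fold change over the 7 members was 1.89 in SHAM and 1.34 in Laminectomy mice, beside medians over all genes tested of -0.0020 and 0.0093, and 1.84 and 1.32 over the 6 members other than *Csf3*.

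No member was called between Laminectomy and SHAM mice, and neither was any other gene, so that 0% of genes were called in either direction. At an unadjusted p below 0.05 there were 2359 genes, among them 4 members, and DESeq2 called 696 genes, of which 1 was a member, *Csf3*. All 7 members had a log2 fold change below 0 in this comparison, although that of *Il34* was near 0 and changed sign when any of 4 mice was left out. The median was -0.58, and -0.50 over the 6 members other than *Csf3*, beside 0.0037 over all genes tested. *Csf3*, which was tested only through the SHAM mice, is also among the 4 members with an unadjusted p below 0.05. The macrophage and monocyte list had a median of -0.72. For 2 members, *Csf3* and *Csf3r*, every Laminectomy mouse lay below every SHAM mouse, and the groups did not overlap for 10.1% of all genes tested. Against No operation mice, the groups did not overlap for 7 members in SHAM mice, beside 54.5% of all genes, and for 6 in Laminectomy mice, beside 56.0%. These 6 took in *Csf3*, whose counts were 2, 2, 2 and 30 in Laminectomy mice and 1, 0, 1 and 1 in No operation mice, so that 3 of the Laminectomy mice lay below 3 counts.

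**Figure D1:**
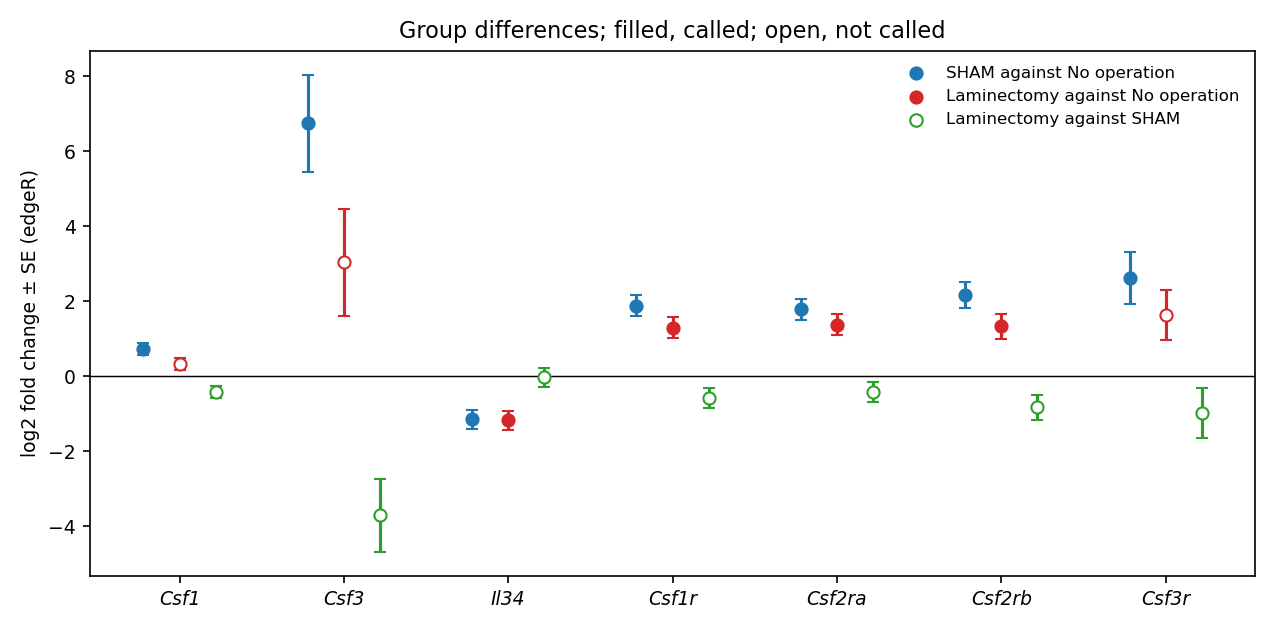
Log2 fold changes from edgeR with their standard errors (y axis) for the 7 members tested (x axis) in the 3 comparisons, from 4 mice per group, with filled points for called and open points for uncalled differences. Filled points are seen for 7 members in SHAM and 4 in Laminectomy against No operation mice, and none between the surgical groups.

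*Csf1* (chromosome 3, 107741048 to 107760469, minus strand), made by fibroblasts, endothelium and muscle among other cells, had the highest mean level per length of the ligands in every group. It was at 120.2, 101.8, 122.6 and 86.6 CPM in the No operation group. The SHAM group had 206.9, 161.2, 186.1 and 165.3 CPM, and the Laminectomy group 173.0, 133.3, 120.6 and 114.5 CPM. Every SHAM mouse lay above every No operation mouse, whereas the Laminectomy mice overlapped both other groups. The mean was 107.8 ± 16.9 CPM (SD, n = 4) without surgery, 179.9 ± 21.1 CPM in SHAM mice and 135.4 ± 26.3 CPM in Laminectomy mice. *Csf1* rose 1.67-fold in the SHAM group (log2 fold change 0.74 with a standard error of 0.156, adjusted p = 0.00163, edgeR), a call that is lost where a log2 fold change above 1 is asked for. Its log2 fold change of 0.33 in Laminectomy mice was not called (standard error 0.155, adjusted p = 0.0875, edgeR). Between Laminectomy and SHAM mice the value was -0.41 (standard error 0.155), with an unadjusted p of 0.0220 and an adjusted p of 0.229 by edgeR.

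*Il34* (chromosome 8, 110741829 to 110805924, minus strand), the other ligand of CSF1R and best known from keratinocytes and neurons, went the other way. Its levels were 13.0, 17.4, 20.2 and 21.2 CPM in the No operation group. SHAM mice were at 6.01, 9.63, 10.01 and 6.78 CPM, and Laminectomy mice at 4.98, 9.41, 7.30 and 10.2 CPM. All operated mice lay below all unoperated mice, and the surgical groups covered nearly the same range. *Il34* fell 2.21-fold in the SHAM group (log2 fold change -1.14 with a standard error of 0.252, adjusted p = 0.00217, edgeR) and 2.25-fold in Laminectomy mice (-1.17, standard error 0.252, adjusted p = 0.00205, edgeR). Between the surgical groups its log2 fold change was -0.03 (standard error 0.252, adjusted p = 0.970, edgeR). The genes with the most similar pattern over the 12 mice were *Per3*, *Cys1* and *Ucp3*, with Pearson's r of 0.985, 0.984 and 0.968 on log2 CPM, and 0.965, 0.947 and 0.897 for deviations from the group means. *Ucp3* encodes a mitochondrial carrier of skeletal muscle. *Il34* thus fell beside the muscle list, all of whose 10 genes fell, with a median log2 fold change of -4.12 in SHAM and -3.61 in Laminectomy mice. The part of muscle loss in the fall of *Il34* was not tested. The counts of *Il34* may include reads of *Gm15894* and *Gm15895*, which share 22 and 75 bases of exon with it on the opposite strand.

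The level of *Csf1* relative to *Il34* was higher in every operated mouse than in any unoperated mouse. Per length of exon, *Csf1* was 3.44, 2.17, 2.25 and 1.52 times as abundant as *Il34* in the No operation mice. In SHAM mice the ratio was 12.8, 6.21, 6.90 and 9.04, and in Laminectomy mice it was 12.9, 5.26, 6.13 and 4.18. SHAM and Laminectomy mice overlapped. Group means were 2.35 ± 0.801, 8.73 ± 2.95 and 7.11 ± 3.94 (SD, n = 4). Since the ratio combines transcripts that were tested one by one, it is given without a test.

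**Figure D2:**
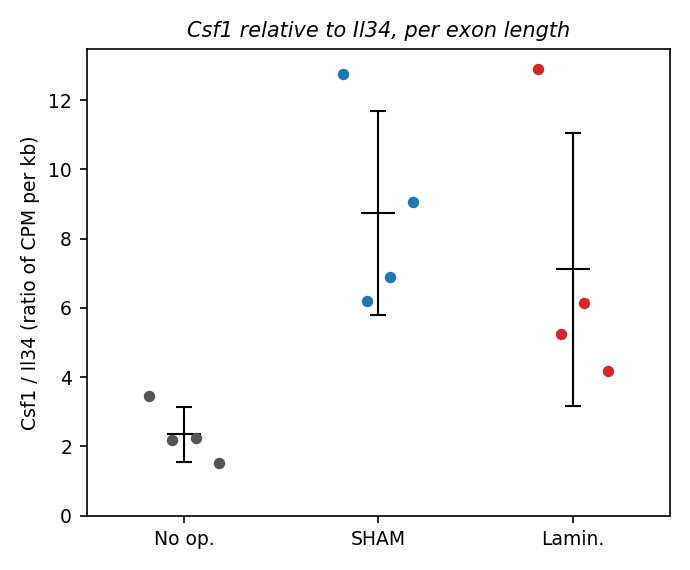
Ratio of *Csf1* to *Il34* in CPM per kb of exon (y axis) for each of the 4 mice of each group (points), with the group mean and SD (bars). Unoperated mice lie between 1.52 and 3.44, and all operated mice lie at 4.18 or above.

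*Csf3* (chromosome 11, 98701263 to 98703629, plus strand), which stromal, endothelial and myeloid cells produce on exposure to inflammatory cytokines, had 1, 0, 1 and 1 counts in the No operation mice. SHAM mice had 295, 72, 44 and 39 counts and Laminectomy mice 2, 2, 2 and 30, equal to 16.6, 3.85, 2.33 and 2.08 CPM and to 0.106, 0.103, 0.104 and 1.56 CPM. Every SHAM mouse was thus well above 3 counts, and in Laminectomy mice only replicate 4 exceeded 3 counts. Pooled over mice, 450 counts in SHAM against 3 in No operation mice gave a ratio of 120.8 with an exact 95% interval of 41.1 to 588 that covers counting error only. The rise in SHAM mice was called (log2 fold change 6.75, standard error 1.30, adjusted p = 0.000877, edgeR), but the gene was tested only because the SHAM mice carried it past the filter on low counts, so the call does not stand apart from that filter. With no such filter the log2 fold change was 6.75 as well (adjusted p = 0.000898). Without SHAM replicate 1 the log2 fold change was 5.58 and the call was kept (adjusted p = 0.00163, edgeR).

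In Laminectomy mice, 36 counts in all gave 9.32 times the pooled No operation level, with a counting interval of 2.95 to 47.3, and 30 of these counts came from replicate 4. The edgeR log2 fold change of 3.05 was not called (standard error 1.43, adjusted p = 0.0847). It was 0.95 without Laminectomy replicate 4 (adjusted p = 0.561), whereas without SHAM replicate 1 it was 3.06 and called (adjusted p = 0.0423), as it was in DESeq2 (3.22, adjusted p = 0.0249). With only Laminectomy and No operation mice fitted, *Csf3* did not pass the filter, so these calls hold only where the SHAM mice carried it into the fit. *Csf3* had the largest gap among the members between the surgical groups, with a log2 fold change of -3.71 in Laminectomy against SHAM mice (standard error 0.975). Its unadjusted p was 0.00270 and its adjusted p 0.135 by edgeR, so it was not called there, while DESeq2 called it with an adjusted p of 0.0100. Without SHAM replicate 1 the log2 fold change was -2.52 (adjusted p = 0.360, edgeR), and without Laminectomy replicate 4 it was -5.80 (adjusted p = 0.0723).

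*Csf2* (chromosome 11, 54247271 to 54249667, minus strand), known mostly from activated lymphocytes, fibroblasts and endothelium, had at most 2 counts in any mouse. The counts were 1, 0, 0 and 0 in the No operation group, 1, 1, 2 and 2 in the SHAM group and 0, 1, 1 and 0 in the Laminectomy group. No mouse exceeded 3 counts, which stood for 0.154 to 0.210 CPM at these depths, and the gene did not pass the filter on low counts. Pooled, 6 counts in SHAM mice against 1 in No operation mice gave a ratio of 4.83 with a counting interval of 0.586 to 222. A difference in *Csf2* was not detectable at this depth, although both chains of its receptor were well measured. Exons of *Gm12223* overlap 96 bases of *Csf2* on the opposite strand.

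**Figure D3:**
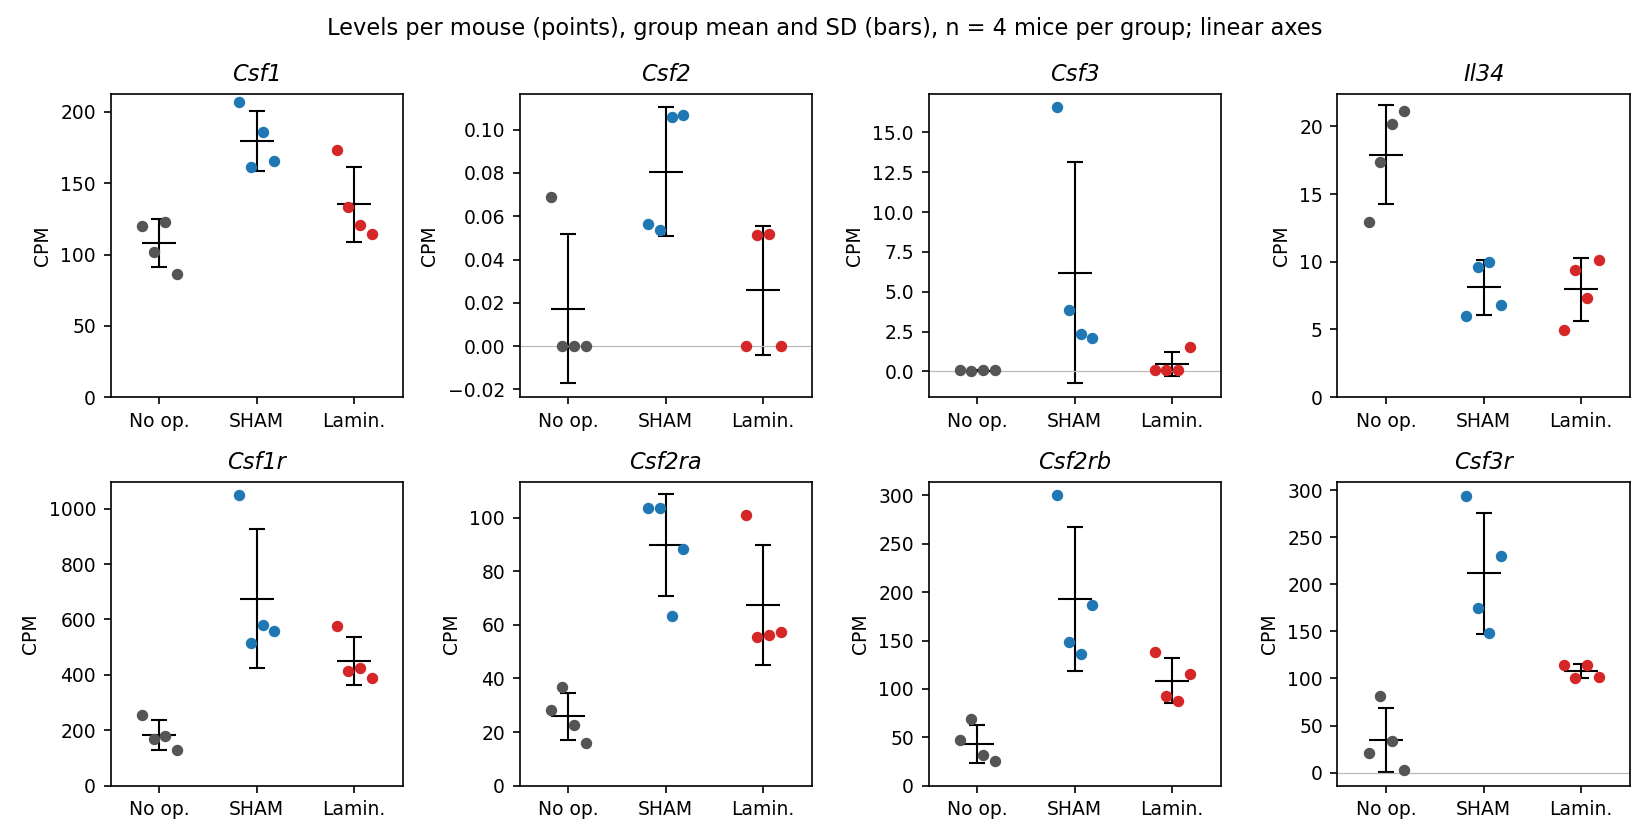
CPM (y axes, linear) of the 8 genes in each of the 4 mice of each group (points) with the group mean and SD (bars). *Csf3* rises in SHAM mice with replicate 1 far above the others, *Il34* is lower in all operated mice, *Csf2* stays at or below 2 counts, and the 4 receptor genes are highest on average in SHAM mice.

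*Csf1r* (chromosome 18, 61100598 to 61132149, plus strand), the receptor of CSF1 and IL-34 on cells of the monocyte and macrophage lineage, had the highest mean level per length of the members in every group. It was at 255.8, 167.4, 179.4 and 128.0 CPM in the No operation group. The SHAM group had 1050, 513.9, 579.3 and 558.6 CPM, and the Laminectomy group 577.4, 413.3, 424.4 and 388.0 CPM. Operated and unoperated mice did not overlap, and the highest Laminectomy mouse lay among the SHAM mice. *Csf1r* rose 3.70-fold in the SHAM group (log2 fold change 1.89 with a standard error of 0.272, adjusted p = 0.000126, edgeR) and 2.47-fold in Laminectomy mice (1.30, standard error 0.268, adjusted p = 0.00151, edgeR). Between Laminectomy and SHAM mice the log2 fold change was -0.58 (standard error 0.264, adjusted p = 0.310, edgeR), and -0.28 without SHAM replicate 1 (adjusted p = 0.720). Exons of *Hmgxb3* overlap 873 bases of *Csf1r* on the opposite strand. *Hmgxb3* lay between 29.1 and 42.6 CPM in all mice, with log2 fold changes of -0.16 and -0.24 against No operation mice. *Zdhhc9*, *Mfsd1* and *Pla2g7* followed *Csf1r* most closely over the 12 mice (r = 0.992, 0.991 and 0.991, and 0.969, 0.961 and 0.943 for deviations from group means).

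*Csf2ra* (chromosome 19, 61223957 to 61228429, minus strand) encodes the chain that makes the GM-CSF receptor specific to its ligand. It was at 28.4, 36.7, 22.6 and 15.98 CPM in the No operation group. SHAM mice were at 103.6, 103.5, 63.4 and 88.3 CPM, and Laminectomy mice at 100.8, 55.4, 56.1 and 57.4 CPM. In Laminectomy mice, replicate 1 stood far above the other three, among the SHAM mice. *Csf2ra* rose 3.46-fold in the SHAM group (log2 fold change 1.79 with a standard error of 0.280, adjusted p = 0.000221, edgeR) and 2.601-fold in Laminectomy mice (1.38, standard error 0.277, adjusted p = 0.00132, edgeR). The difference between the surgical groups was not called (-0.41, standard error 0.271, adjusted p = 0.477, edgeR). Its count was not a whole number in 10 mice, although no window of 100 bases shared with another gene was found. *Snx20*, *Slfn2* and *Prkcd* were most like it (r = 0.993, 0.992 and 0.990, and 0.966, 0.961 and 0.949 for deviations).

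*Csf2rb*, the signalling chain of the GM-CSF, IL-3 and IL-5 receptors, was at 47.1, 68.5, 31.2 and 25.0 CPM in the No operation group. SHAM mice had 300.04, 148.9, 135.8 and 186.6 CPM and Laminectomy mice 138.3, 92.9, 87.5 and 115.7 CPM. All operated mice were above all unoperated mice, and 1 Laminectomy mouse exceeded the lowest SHAM mouse. *Csf2rb* rose 4.49-fold in the SHAM group (log2 fold change 2.17 with a standard error of 0.339, adjusted p = 0.000222, edgeR) and 2.53-fold in Laminectomy mice (1.34, standard error 0.331, adjusted p = 0.00465, edgeR). Between Laminectomy and SHAM mice its log2 fold change was -0.83 (standard error 0.326, adjusted p = 0.247, edgeR). *Syk*, *Srgn* and *Il1r2* had the most similar pattern (r = 0.990, 0.986 and 0.986, and 0.956, 0.954 and 0.938 for deviations).

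The copy *Csf2rb2* was at 16.5 to 33.9 CPM in the No operation group. The SHAM group had 79.1 to 178.8 CPM, and the Laminectomy group 40.8 to 78.5 CPM. It rose with log2 fold changes of 2.17 in SHAM and 1.25 in Laminectomy mice (adjusted p = 0.000176 and 0.00555, edgeR), close to those of *Csf2rb*. The deposited values of the pair were fractional, yet their sum was a whole number within 0.015 in each of the 12 mice, so reads that could not be told apart, such as those within the identical run above, had been divided between them. *Csf2rb* took 58.1% to 70.3% of the sum. With both genes counted as 1, an alternative chosen after seeing the data, the log2 fold changes were 2.17 and 1.31 against No operation mice and -0.86 between the surgical groups, and no call changed. Of the rest of this family, where *Il3* was not analysed here, the IL-3 receptor alpha chain *Il3ra* rose from 6.87 ± 1.70 CPM (SD, n = 4) to 27.6 ± 8.34 CPM in SHAM mice (log2 fold change 2.01, adjusted p = 3.75e-05, edgeR) and to 17.6 ± 2.76 CPM in Laminectomy mice (1.35, adjusted p = 0.000550, edgeR). *Il5* and *Il5ra* were below 1 CPM in every mouse and were not tested.

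*Csf3r* (chromosome 4, 126024550 to 126044440, plus strand), the G-CSF receptor, ranged widely among unoperated mice. It was at 20.6, 81.0, 33.9 and 2.24 CPM in the No operation group. SHAM mice were at 293.9, 174.9, 147.8 and 229.5 CPM, and Laminectomy mice at 114.7, 100.9, 113.9 and 101.1 CPM. The groups did not overlap, with SHAM mice above Laminectomy mice and these above No operation mice. The means were 34.4 ± 33.6, 211.5 ± 64.6 and 107.6 ± 7.67 CPM (SD, n = 4), and the Laminectomy mice were the closest to one another. *Csf3r* rose 6.13-fold in the SHAM group (log2 fold change 2.62 with a standard error of 0.696, adjusted p = 0.00661, edgeR). The log2 fold change of 1.64 in Laminectomy mice was not called (standard error 0.673, adjusted p = 0.0531, edgeR), and that of -0.97 between the surgical groups was not called (standard error 0.659, adjusted p = 0.492, edgeR).

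These values depended on the No operation mice. Without No operation replicate 2 the log2 fold change of *Csf3r* was 3.48 in SHAM mice (adjusted p = 0.00113, edgeR) and 2.51 in Laminectomy mice, where it was then called (adjusted p = 0.00620). It was also called in Laminectomy mice without No operation replicate 4 (1.25, adjusted p = 0.0235), in DESeq2 (1.66, adjusted p = 0.0193) and among genes with at least 10 counts in every mouse (1.65, adjusted p = 0.0492). No operation replicates 2 and 3, with the highest *Csf3r* of the group, were also those with marrow precursor transcripts. Myeloperoxidase, *Mpo*, was at 356 and 116 CPM there, and at 0.896 and 2.10 CPM in replicates 1 and 4. Operated mice held such transcripts too. The marrow list summed to 362.9, 1752, 2763 and 468.3 CPM in the Laminectomy mice, with *Mpo* at 123 and 262 CPM in replicates 2 and 3, and to 286.2, 152.1, 369.4 and 852.6 CPM in the SHAM mice. Without No operation replicates 2 and 3, an alternative chosen after seeing the data, the log2 fold changes were 4.22 in SHAM and 3.25 in Laminectomy mice, both called (adjusted p = 0.00124 and 0.00398, edgeR), and 7 and 5 members were called, beside 48.2% and 47.1% of all genes. Since these mice had the highest *Csf3r* of their group, leaving them out had to raise these values. When Laminectomy replicates 2 and 3 were left out as well, also chosen after seeing the data, *Csf3r* was at 3.24 in Laminectomy against No operation mice and called (adjusted p = 0.0182, edgeR), as were *Csf2ra* (1.83, adjusted p = 0.00865) and *Csf2rb* (1.81, adjusted p = 0.0141). With 2 mice left in each of these groups, *Csf1r* (1.33, adjusted p = 0.0500078) and *Il34* (-1.17, adjusted p = 0.0553) were no longer called, and 42.4% of all genes were. The part of marrow cells in these levels was not tested. *Slpi*, *Plac8* and *Cd300lf* resembled *Csf3r* most (r = 0.994, 0.992 and 0.990, and 0.985, 0.982 and 0.977 for deviations).

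Levels of different genes were compared per kb of exon. *Csf1r* led in all groups, with 31.6 ± 9.26, 117.0 ± 43.5 and 78.1 ± 14.9 CPM per kb in No operation, SHAM and Laminectomy mice (SD, n = 4). In No operation mice *Csf1* followed at 20.4 ± 3.20 CPM per kb, and *Csf3r*, *Il34*, *Csf2ra* and *Csf2rb* came next at 9.54, 9.15, 9.02 and 5.90 CPM per kb. From *Csf1r* to *Csf2rb*, the ranges of each gene and the next overlapped. In SHAM mice the order was *Csf1r*, *Csf3r* at 58.6 ± 17.9, *Csf1* at 34.1 ± 3.99, *Csf2ra* at 31.2 ± 6.60 and *Csf2rb* at 26.5 ± 10.3 CPM per kb, with the ranges of the last 3 overlapping from each to the next. *Csf3* at 4.40 ± 4.92 and *Il34* at 4.14 ± 1.02 CPM per kb followed and could not be ordered. In Laminectomy mice *Csf3r* at 29.8 ± 2.12, *Csf1* at 25.6 ± 4.98 and *Csf2ra* at 23.5 ± 7.76 CPM per kb overlapped in the same way, above *Csf2rb* at 14.9 ± 3.20, *Il34* at 4.07 ± 1.19 and *Csf3* at 0.332 ± 0.517 CPM per kb. The range of *Il34* thus overlapped those of *Csf3r*, *Csf2ra* and *Csf2rb* in unoperated tissue and lay below those of all receptors in operated tissue.

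The rise of the receptors was next set beside markers of cells that carry them. The macrophage and monocyte list of 15 genes summed to 832.5 to 2187 CPM in the No operation group, 4830 to 9034 CPM in the SHAM group and 3430 to 5689 CPM in the Laminectomy group. Of these genes 11 were called higher and 2 lower in SHAM mice and 10 higher and 2 lower in Laminectomy mice, and the median log2 fold changes were 2.07 and 1.26. For this list and those below, the shares over all genes tested were 25.7% called higher and 25.1% lower in SHAM mice. In Laminectomy mice they were 24.2% and 24.4%. *Cd14*, the co-receptor for lipopolysaccharide, rose by 3.52 and 2.22 on the log2 scale. The Fc receptor *Fcgr1* rose by 3.52 and 3.02 on the log2 scale and *Cd68*, a lysosomal protein of macrophages, by 2.92 in SHAM mice. *Timd4* and *Lyve1*, markers of resident macrophages, fell in both surgical groups, with log2 fold changes of -2.83 and -1.53 in SHAM and -3.55 and -2.69 in Laminectomy mice. They were the only 2 genes of the list called lower. *Mrc1*, *Mertk* and *C1qa* were called higher in SHAM mice (1.91, 1.27 and 2.07), and *Cd163* was called in neither group (1.11 and -1.50). *Csf1r* minus the mean of this list on the log2 CPM scale was 2.34 ± 0.252 in the No operation, 2.52 ± 0.0897 in the SHAM and 2.63 ± 0.215 in the Laminectomy group (SD, n = 4). *Csf2ra* minus the same mean was -0.49 ± 0.367, -0.35 ± 0.425 and -0.14 ± 0.397. The differences between SHAM and No operation mice, 0.18 for *Csf1r* and 0.14 for *Csf2ra*, turned to -0.29 and -0.33 when the median of the markers was taken in place of the mean.

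The neutrophil list of 12 genes summed to 17.7, 74.5, 701 and 1744 CPM in No operation replicates 4, 1, 3 and 2, to 429.5 to 1454 CPM in the SHAM group and to 561.2 to 1824 CPM in the Laminectomy group, so the groups overlapped. In both surgical groups 5 of its genes were called higher and none lower, and the median log2 fold changes were 1.21 in SHAM and 0.93 in Laminectomy mice. The list was split. The defining neutrophil genes *Ly6g*, *S100a8*, *S100a9*, *Retnlg* and *Mmp8* were not called, with log2 fold changes of -1.35, 0.04, -0.26, -0.47 and 0.15 in SHAM and 0.26, 0.67, 0.36, 0.58 and 0.58 in Laminectomy mice. They too were high in No operation replicates 2 and 3, where *S100a8* was at 562 and 231 CPM, beside 14.7 and 3.93 CPM in replicates 1 and 4. *Wfdc21* (0.36 and 0.10) and the chemokine receptor *Cxcr2* (2.05 and 1.19) were not called either. *Clec4d* and *Ptgs2*, inducible genes of activated myeloid cells, rose by 4.75 and 4.29 on the log2 scale in SHAM mice and by 3.70 and 4.33 in Laminectomy mice. *Stfa2l1*, the decoy receptor *Il1r2* and the receptor *Trem1* rose by 3.88, 3.57 and 2.97 in SHAM mice and by 1.92, 1.87 and 1.79 in Laminectomy mice. The list of 10 marrow granulocyte precursor genes had no call in either comparison, with median log2 fold changes of -1.93 and 0.05. *Csf3r* minus the mean of the neutrophil list was 1.83 ± 0.456 in No operation, 2.68 ± 0.509 in SHAM and 1.94 ± 0.503 in Laminectomy mice (SD, n = 4). With the median of the list, the difference of Laminectomy from No operation mice turned from 0.11 to -0.35. *Csf2rb* minus that mean was 2.89 ± 1.69, 2.53 ± 0.448 and 1.93 ± 0.796. In two-sided exact permutation tests of 4 against 4 mice, none of the 12 differences of a receptor from its list passed. The smallest p found was 0.0571, for *Csf3r* in SHAM against No operation mice (0.85 on the log2 scale), with an adjusted p of 0.514 over the 12 tests, where this design allows no p below 0.0286. A single difference at that limit would have had an adjusted p of 0.343, and 7 of the 12 would have had to reach it for any to pass, so these tests could not have singled out 1 receptor.

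**Figure D4:**
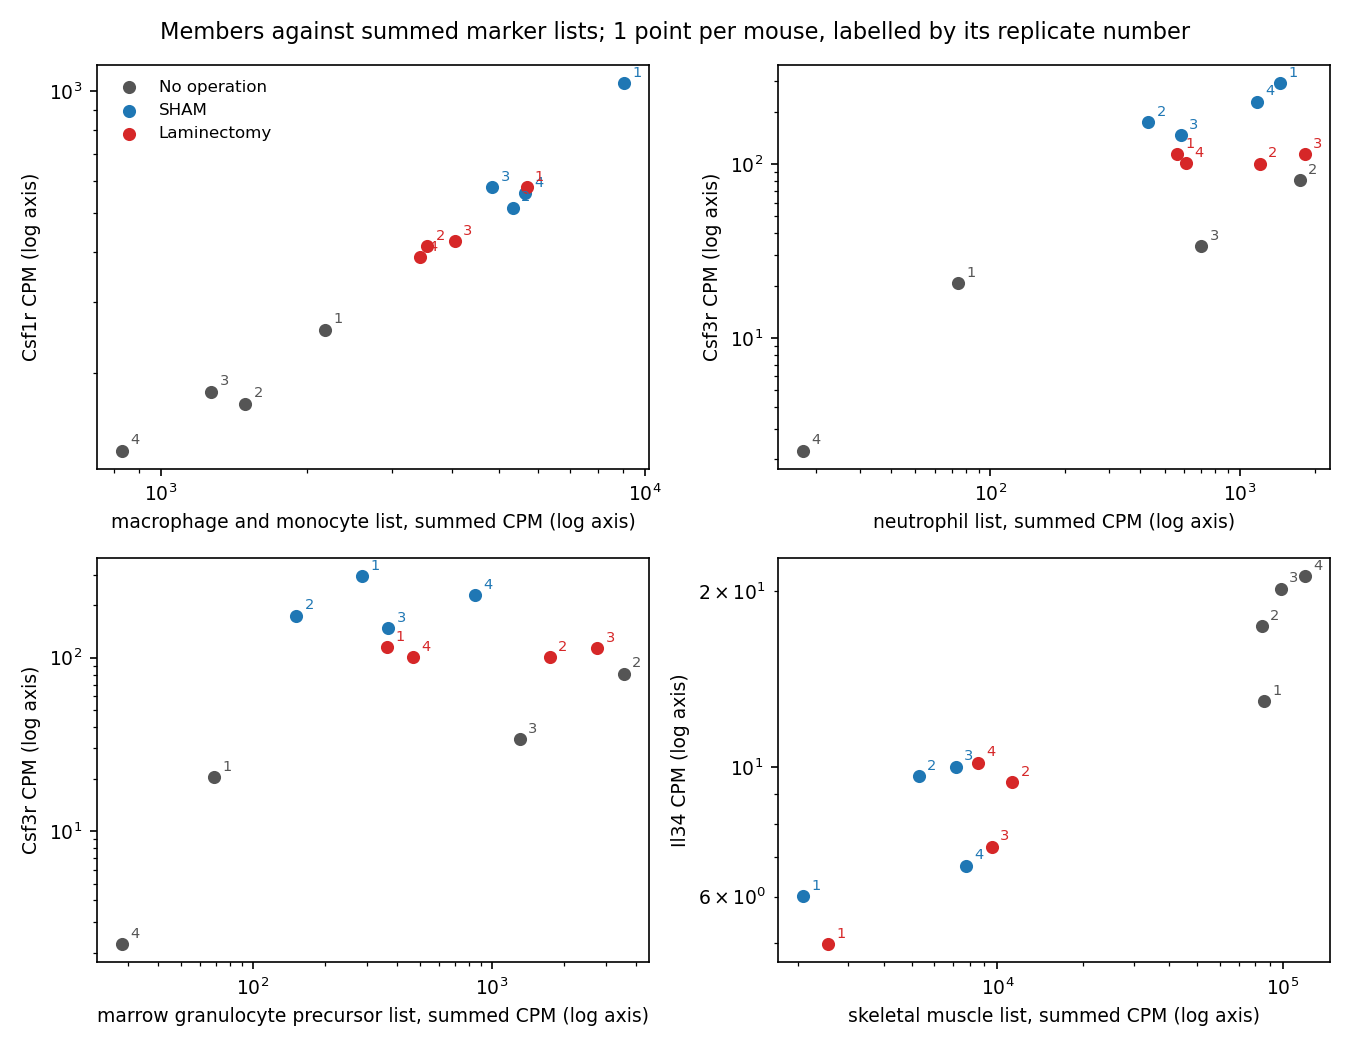
Level of a member (y axes, CPM) against the summed CPM of a marker list (x axes) on log axes, with 1 point per mouse labelled by its replicate number. *Csf1r* and the macrophage and monocyte list rise together from No operation to operated mice, No operation replicates 2 and 3 have less *Csf3r* than every SHAM mouse at neutrophil sums within or above the SHAM range, and *Il34* and the skeletal muscle list are both highest in No operation mice.

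Of 25 genes of receptor signalling, 17 were called higher and 2 lower in SHAM mice, beside 25.7% and 25.1% of all genes tested. In Laminectomy mice 14 were called higher and 2 lower, beside 24.2% and 24.4%. The median log2 fold changes were 0.80 and 0.55. The adaptor *Tyrobp* rose by 2.61 and 2.24 on the log2 scale in SHAM and Laminectomy mice. *Socs3*, the feedback inhibitor of CSF3R signalling, was at 38.7 ± 41.9 CPM in No operation and 228.4 ± 55.5 CPM in SHAM mice (SD, n = 4; log2 fold change 2.56, adjusted p = 0.00298, edgeR). In Laminectomy mice it was at 115.7 ± 43.2 CPM and was called as well (log2 fold change 1.58, adjusted p = 0.0330, edgeR). *Cish*, a target of STAT5, fell in both surgical groups (log2 fold change -1.66 in SHAM mice, adjusted p = 0.0129, and -2.44 in Laminectomy mice, adjusted p = 0.00181, edgeR).

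Of 15 lineage transcription factors, 7 were called higher in each surgical group, and 1 was called lower in SHAM and 3 in Laminectomy mice. Over all genes tested, 50.8% were called in SHAM and 48.6% in Laminectomy mice in either direction, so the list as a whole was near that share in SHAM mice. *Egr2*, an early growth response factor, rose by 2.24 and 2.45 on the log2 scale. *Spi1*, which encodes PU.1, was at 28.6, 40.6, 22.8 and 9.18 CPM in the No operation group. Values in SHAM mice were 154, 112, 85.8 and 124 CPM, and those of Laminectomy mice 125, 74.8, 80.4 and 81.4 CPM. It rose by 2.23 and 1.83 on the log2 scale (adjusted p = 0.000318 and 0.00121, edgeR). *Runx1*, a partner of PU.1, rose by 2.10 and 2.37. Those called lower were *Klf4* in SHAM mice (log2 fold change -0.59), and *Klf4*, *Cebpd* and *Cebpa* in Laminectomy mice (-1.10, -1.12 and -0.87).

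Of 15 cytokines, receptors and mediators known to induce *Csf2* or *Csf3*, 13 were tested, and 11 were called higher in SHAM and 7 in Laminectomy mice, with none lower and medians of 1.77 and 1.11. *Il1b* was at 4.85 ± 4.28 CPM in No operation, 176 ± 77.6 CPM in SHAM and 66.4 ± 28.2 CPM in Laminectomy mice (SD, n = 4). *Il6* rose by 5.69 and 5.41 and *Tnf* by 3.81 and 2.70 on the log2 scale. *Il1a* was highest in SHAM replicate 1, at 26.4 CPM, and between 3.74 and 5.77 CPM in the other SHAM mice. In Laminectomy mice it was at 4.08, 1.23, 1.14 and 1.56 CPM. *Il17a*, a T cell cytokine that induces *Csf3*, was listed at 0 in 9 mice and reached 0.281 CPM in SHAM replicate 1. *Il17f* was at most 0.200 CPM in any mouse.

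Of 10 genes of myeloid survival and growth, 6 were called higher in SHAM and 7 in Laminectomy mice, with none lower. *Bcl2a1b*, which protects myeloid cells from cell death, rose by 3.03 and 3.01 on the log2 scale. Of 10 osteoclast genes, a lineage that depends on CSF1, 4 were called higher and 1 lower in SHAM mice, where 50.8% of all genes were called in either direction. In Laminectomy mice 8 were called higher, where 24.2% of all genes were. The osteoclast medians were 0.72 and 2.33. *Ocstamp*, needed for fusion of osteoclast precursors, rose by 1.66 and 3.69 and *Tnfsf11*, which encodes RANKL, by 3.10 and 3.49. No gene of either list was called between Laminectomy and SHAM mice, where the osteoclast median was 1.53. Laminectomy mice also had bone list sums of 680.5 to 1878 CPM, beside 28.8 to 158.3 CPM in SHAM mice, and the part of bone in the sample was not tested.

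Genes of other cells that the tissue could hold, among them makers of the ligands, were counted in the same way. In the fibroblast list of 10 genes, 6 were called higher in both surgical groups, with 1 lower in SHAM and 2 lower in Laminectomy mice. The endothelial list of 8 had 4 and 3 genes called lower and none higher. T and NK cell genes were called higher for 6 of 7 tested in SHAM and 5 in Laminectomy mice. Of 8 dendritic cell genes tested, 4 were called higher in both groups, and 2 were lower in Laminectomy mice. Mast cell and eosinophil genes, 11 in all, had none called higher, with 1 lower in SHAM and 5 lower in Laminectomy mice. Keratinocyte genes, of which 3 were tested, had 1 called higher and 1 lower in SHAM mice and 1 lower in Laminectomy mice. The 3 neuron genes tested had 2 higher and 1 lower in SHAM mice and 2 higher in Laminectomy mice, the 6 genes of microglia and glia had 2 and 4 higher and 1 lower in each, and the bone list of 8 had 1 lower in SHAM and 1 higher in Laminectomy mice. Single libraries stood apart in these lists. The neuron list summed to 178.0 and 60.7 CPM in Laminectomy replicates 2 and 3 and to 19.9 and 19.0 CPM in replicates 1 and 4, with *Snap25* at 63.1 and 23.7 CPM beside 0.0529 CPM and 0. *Gfap*, an astrocyte gene, was at 52.7 and 18.1 CPM in replicates 2 and 3 and at 1.38 and 0.261 CPM in replicates 1 and 4. The keratinocyte list summed to 136.6 and 80.8 CPM in SHAM replicates 1 and 3 and to 16.5 and 10.8 CPM in replicates 2 and 4. *Il34* in these libraries, at 9.41 and 7.30 CPM in Laminectomy replicates 2 and 3 and at 6.01 and 10.01 CPM in SHAM replicates 1 and 3, was below that of every unoperated mouse. The part of these cells in the levels of the ligands was not tested.

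*Csf1* was most like *Lrp1*, *St3gal1* and *Cic* over the 12 mice (r = 0.968, 0.960 and 0.957, and 0.897, 0.874 and 0.919 for deviations from group means). *Csf3* was most like *Wdr41*, *Dram1* and *Kdm3a* (r = 0.9496, 0.944 and 0.936, and 0.785, 0.770 and 0.776 for deviations), where 0.9496 was the lowest of the best values of the 7 members. *Csf1* and *Csf1r* had an r of 0.909, and 0.817 for deviations, while *Il34* and *Csf1r* had an r of -0.91, and -0.79 for deviations. *Csf3* and *Csf3r* had an r of 0.597 and of -0.03 for deviations. These values describe 12 mice whose groups differ in tissue make-up, and points share library scaling.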

How the data were processed

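RNA was sequenced from tissue of 12 mice in 3 groups (No operation, SHAM, Laminectomy; 4 mice per group), which were taken from the sample labels. The authors prepared stranded polyA libraries, aligned reads with STAR 2.6.1b to GRCm38, counted them with featureCounts 2.0.1 and used DESeq2 1.30.1. The authors deposited estimated counts of reads for 18996 genes without normalization, of which 10.2% are not whole. Rounding to whole numbers moved a value by at most 0.5. Default counting gives whole numbers, and the step that made fractions is not given in the sources used here. The design assumed counts as deposited or rounded.

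Genes were filtered with filterByExpr (4231 removed), libraries were scaled by TMM, and all 12 mice were fitted in 1 quasi-likelihood model (edgeR 4.0.16, R 4.3.3). The common biological coefficient of variation was 28.3%, and precision was set by this spread and by the count, since depth was nearly equal. The methods do not name the 3 mice per group that were used, and p-values measure the spread between mice. Log2 CPM used a prior count of 2. Exons came from GENCODE. Counting was stated to use default settings, which ignore strand, so genes with exon overlap are named. Scripts were tested on simulated data. Alternatives were DESeq2 1.42.0, other scaling and filters, fits of only the groups compared, a replicate block, a log2 fold change above 1, another prior count, the median of the markers, length of the longest transcript, and each mouse left out.

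The members and lists were chosen with earlier results of these data known. All members are named with each mouse's value, with every gene of the shared beta chain family but *Il3*, overlapping or near-identical genes, genes from among the 4 called with the largest fold change per list and comparison (not all of these), and the 3 genes most like each member. *Mpo*, *Il1a* in single mice, *Il17a*, *Il17f*, *Snap25*, *Gfap* in single mice and the neutrophil genes other than *Clec4d*, *Ptgs2*, *Stfa2l1* and *Il1r2* were named after their values were seen. So were *Klf4*, *Cebpa*, *Cebpd*, *Mrc1*, *Mertk*, *C1qa* and *Cd163*.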

Additional observations from a re-analysis of the deposited data

Results flagged for a closer look

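In 38 groups of 4 mice, the highest or lowest mouse was compared with the others by Dixon's ratio (the gap to the nearest mouse over the whole range, against its 95% critical value), and 4 stood apart. Chance gives about 1 in 20 groups. *Csf3* in SHAM replicate 1 was at 16.6 CPM, with a ratio of 0.878. *Csf3* in Laminectomy replicate 4 was at 1.56 CPM, with a ratio of 0.998, above 3 mice with 2 counts each. *Csf1r* in SHAM replicate 1 was at 1050 CPM, with a ratio of 0.878. *Csf2ra* in Laminectomy replicate 1 was at 100.8 CPM, with a ratio of 0.955.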

How the results depend on the processing

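Of 674 recomputed values, 638 kept their direction and their side of the threshold, or moved by less than the spread. DESeq2 called *Csf3* (3.22) and *Csf3r* (1.66) in Laminectomy against No operation mice and *Csf3* (-3.72) in Laminectomy against SHAM mice, where it called 1 member and 696 genes, and the cause was not tested. *Csf3r* in Laminectomy against No operation mice was also called with at least 10 counts in every mouse (1.65) and without No operation replicates 2 and 3 (3.25). Without replicates 2 and 3 of both groups it was called as well (3.24), while *Csf1r* (1.33) and *Il34* (-1.17) were not, with fewer mice fitted. Leaving out single mice gave *Csf3r* log2 fold changes from 1.25 to 2.51 and *Csf3* from 0.95 to 3.38 in that comparison, and *Il34* from -0.17 to 0.14 in Laminectomy against SHAM mice. A log2 fold change above 1 left 4589 and 4323 genes and 6 and 4 members called in SHAM and Laminectomy against No operation mice, with *Csf1* no longer called in SHAM mice. With the median of the markers, *Csf1r* (-0.29) and *Csf2ra* (-0.33) in SHAM and *Csf3r* (-0.35) in Laminectomy against No operation mice changed sign, the last also with a prior count of 0.5 (-0.0013). Leaving out single mice moved these differences from -0.016 to 0.27 for *Csf2ra* and from -0.84 to 0.30 for *Csf2rb* in SHAM, and from -0.088 to 0.33 for *Csf3r* in Laminectomy mice. With the longest transcript, 8 of 24 levels per length moved by more than 1 SD. *Csf3* had no value with at least 10 counts in every mouse, and none in Laminectomy against No operation mice fitted alone. *Csf2* had too few counts for any test.

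Same-numbered mice of different groups had correlations of their deviations from -0.23 to 0.35 over 12 pairs, so the numbers were not taken to pair mice. With a replicate block, 7442, 7153 and 0 genes and 7, 4 and 0 members were called in SHAM against No operation, Laminectomy against No operation and Laminectomy against SHAM mice.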
